A study of Mus musculus with 8 samples.

Results

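The genes examined here encode 35 subunits of the receptors for glutamate, GABA and glycine, the main fast transmitters of the brain. They were taken by gene symbol from the 53278 symbols of a raw count table, and all 35 had enough counts to be among the 20140 genes tested. They are 4 AMPA, 6 NMDA and 5 kainate receptor subunits, 6 metabotropic glutamate receptors, 9 GABA-A and 2 GABA-B receptor subunits and 3 glycine receptor subunits; other genes of these families were not analysed here. The libraries came from the whole forebrain of 8 male C57BL/6J mice aged 10 to 20 weeks, with total RNA of 1 mouse in each. Of these, 4 were fed for 9 days with food containing PLX3397, an inhibitor of CSF1R, the kinase that microglia need to survive, and of the kinases KIT and FLT3 (depleted mice), and 4 were given control food (control mice). Both groups were of this strain, sex and age, and the drug is not confined to microglia, so the groups differ by drug intake as well as by microglia. The series title concerns microglia, CD39 and cerebral blood flow, and the question put to the receptor genes was which of them differed between depleted and control forebrains.

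Glutamate opens AMPA, NMDA and kainate receptors, which are cation channels of 4 subunits, and also acts through slower metabotropic receptors coupled to G proteins. GABA opens GABA-A receptors, chloride channels of 5 subunits whose alpha, gamma and delta members set where on the neuron the channel sits, and acts through metabotropic GABA-B receptors. Glycine receptors are chloride channels related to GABA-A receptors. Subunit genes are used unevenly across the regions of the forebrain. In bulk RNA, fewer cells of a type and less RNA per cell cannot be told apart.

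Counts per library ranged from 48455538 to 68406688, and the 35 genes took 0.517% to 0.632% of them. Levels are given as CPM, the counts of a gene relative to library size after TMM scaling, with the SD over 4 mice, or per kb of annotated exon where genes are compared with each other. Depletion was checked with 12 microglia marker genes, whose summed level was 228 to 275 CPM in control mice and 2.62 to 8.35 CPM in depleted mice, and all 12 fell. Neuron marker genes stood at a mean log2 CPM of 9.24 ± 0.048 in control and 9.23 ± 0.095 in depleted mice, and astrocyte markers at 6.89 ± 0.078 in control and 6.90 ± 0.16 in depleted mice. Regional marker genes were less even. The striatum score, the mean log2 CPM of 12 genes of striatal projection neurons, was 4.41, 6.83, 6.19 and 5.39 in control mice 1 to 4 and 7.54, 5.80, 7.82 and 7.50 in depleted mice 1 to 4, with depleted mouse 2 lowest of its group and inside the control range. The hippocampus score, from 10 genes, was 4.18, 3.29, 3.76 and 4.16 in control mice 1 to 4 and 2.83, 3.92, 2.91 and 2.74 in depleted mice 1 to 4, and here depleted mouse 2 was the highest of its group. At least 100 counts of Hcrt, a neuropeptide gene of the hypothalamus, were present in control mice 2 and 3 and depleted mice 2 and 3, and at most 12 in the other four. No batch is named in the labels.

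None of the receptor genes passed the test. In edgeR's quasi-likelihood test, depleted against control, 0 of 35 were lower and 0 higher at an adjusted p under 0.05, where 1.16% of all genes tested were called (1.11% lower and 0.0546% higher). At an unadjusted p under 0.05 there were 6 (4 higher and 2 lower), against 11.0% of all genes, and DESeq2, which called 2.31% of all genes, and limma-voom each called 0 of the 35. In none of the 35 were the 4 depleted mice apart from the 4 control mice, whereas 5.77% of all genes were so separated (2.28% with depleted mice above and 3.50% with depleted mice below). The median log2 fold change of the 35 was 0.054, beside -0.00038 over all genes, with 20 positive and 15 negative values between -0.43 and 0.71. The 95% interval of the fold change lay within 1.5-fold either way for 23 of the 35 (for 61.7% of all genes) and within 2-fold for 34, the exception being Gabrd.

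**Figure D1:**
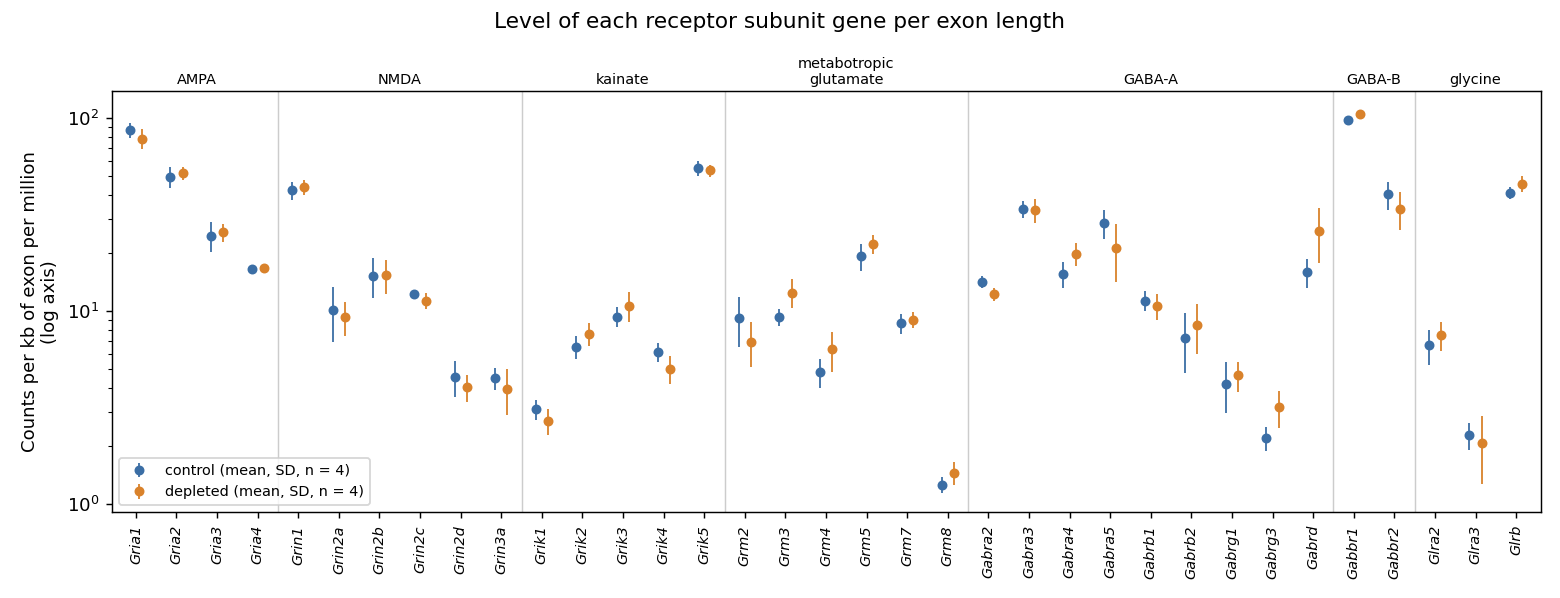
Level of each of the 35 receptor subunit genes as CPM per kb of exon (log axis), mean and SD of 4 control (blue) and 4 depleted (orange) mice, arranged by receptor class. Levels ran from 1.26 for Grm8 to 97.0 for Gabbr1 in control mice, and the group means lay close together for most genes.

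AMPA receptors carry most fast excitatory transmission, and their 4 genes stood close to the control level. Per kb of exon Gria1 (GluA1, chromosome 11, 57011387 to 57330244, mm10) was the most abundant, at 86.5 ± 7.75 in control and 78.2 ± 9.12 in depleted mice. Gria2 (GluA2, the subunit that makes the channel nearly impermeable to calcium) followed at 49.6 ± 6.11 in control mice, then Gria3 at 24.6 ± 4.44 and Gria4 at 16.5 ± 0.456. These steps exceed the SD of each neighbour, but the SD does not cover error in annotated exon length. In counts Gria2 stood above Gria1 in control mice, at 771 ± 95.1 CPM beside 523 ± 46.9 CPM. The order of these 2 genes thus rests on their annotated lengths of 15548 and 6043 bases. Gria1 stood at 491, 506, 502 and 592 CPM in control mice 1 to 4 and at 485, 523, 488 and 394 CPM in depleted mice 1 to 4. Control mouse 4 was highest and depleted mouse 4 lowest, and the groups overlapped. The log2 fold change of Gria1 was -0.15 (adjusted p = 0.653, SE 0.10), with a 95% interval of the fold from 0.773 to 1.06. Those of Gria2, Gria3 and Gria4 were 0.065, 0.054 and 0.021, at adjusted p of 0.866 or more. All 4 intervals lay within 1.5-fold, and the summed level of the class was 1640.3 ± 187 CPM in control mice and 1636 ± 100.2 CPM in depleted mice.

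Within a library the balance of GluA1 to GluA2 does not depend on scaling. The log2 ratio of Gria1 to Gria2 counts was -0.54, -0.56, -0.51 and -0.62 in control mice 1 to 4 and -0.88, -0.53, -0.66 and -1.04 in depleted mice 1 to 4. Depleted mice 1, 3 and 4 lay below every control mouse, and depleted mouse 2 among them. The group means were -0.56 ± 0.048 and -0.78 ± 0.23.

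NMDA receptors combine the obligatory subunit GluN1 with GluN2 or GluN3 subunits, and none of their 6 genes passed. Grin1 (GluN1, chromosome 2, 25291181 to 25319187) was the most abundant per kb of exon, at 42.1 ± 4.49 in control and 43.7 ± 3.90 in depleted mice. Its level was 389, 404, 370.3 and 470.5 CPM in control mice and 473, 388, 401 and 433 CPM in depleted mice. The groups overlapped throughout, and the log2 fold change was 0.054 (adjusted p = 0.886, SE 0.094). Grin1 shares 13.5% of its exon bases with a gene on the opposite strand, Grin1os, so its counts may include reads of that partner. Among the GluN2 genes, which set how long the channel stays open, Grin2b (15.2 ± 3.54) led in control mice, followed by Grin2c (12.2 ± 0.252), Grin2a (10.1 ± 3.21) and Grin2d (4.56 ± 0.962), with Grin3a at 4.48 ± 0.590. Neighbours in this order did not differ beyond their SDs, apart from Grin2a and Grin2d. In counts Grin2c (61.4 ± 1.27 CPM) stood below Grin2a (182 ± 57.6 CPM) and Grin2b (377 ± 88.1 CPM) in control mice. The place of Grin2c in this order thus rests on annotated exon length. Grin2c, which astrocytes also express, stood at -0.10, Grin2d at -0.18, Grin3a at -0.18, Grin2a at -0.13 and Grin2b at 0.019, at adjusted p of 0.629 or more. The log2 ratio of Grin2a to Grin2b, which rises as the brain matures, was -1.07 ± 0.25 in control and -1.20 ± 0.19 in depleted mice. The group means thus lay within the spread between mice. The ratio of Grin2b to Grin1 was -0.14 ± 0.21 and -0.17 ± 0.25.

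Grin2d and Grik1, a pair singled out after their values were seen, were lowest in the same 3 mice, all without Hcrt counts. Grin2d was 21.6, 21.5 and 25.0 CPM in control mouse 4 and depleted mice 1 and 4, and 29.2 CPM or more in the other five. Grik1 was 17.3, 15.1 and 16.4 CPM in the same 3 mice and 19.7 CPM or more elsewhere. Control mouse 1, the other mouse without Hcrt counts, did not share this, at 31.4 CPM for Grin2d and 21.3 CPM for Grik1. Grin2d shares 9.66% of its exon bases with a gene on the opposite strand.

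Kainate receptors, found on both sides of the synapse, pair the low-affinity subunits GluK1 to GluK3 with GluK4 or GluK5. Grik5 (GluK5, chromosome 7, 25009849 to 25072346) made up 68.6% ± 1.14 in control and 67.3% ± 1.99 in depleted mice of the class per kb of exon. It stood at 267, 317, 262 and 290.0 CPM in control mice and 289, 252, 269 and 294 CPM in depleted mice, with overlapping groups and a log2 fold change of -0.040 (adjusted p = 0.906, SE 0.082). Grik3 (9.37 ± 1.12), Grik2 (6.52 ± 0.868), Grik4 (6.12 ± 0.675) and Grik1 (3.10 ± 0.374) were far less abundant in control mice. Per kb of exon Grik2 and Grik4 did not differ beyond their SDs, whereas in counts Grik2 was higher (86.3 ± 11.5 against 36.5 ± 4.02 CPM).

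The other high-affinity gene, Grik4 (GluK4, abundant in hippocampal CA3 neurons, chromosome 9, 42518135 to 42944493), was 39.7, 33.7, 32.3 and 40.2 CPM in control mice and 26.7, 36.9, 26.3 and 29.4 CPM in depleted mice. All depleted mice but mouse 2 were below every control mouse. Its log2 fold change was -0.29 (adjusted p = 0.413, SE 0.12), and -0.040 with the hippocampus score as a covariate. Grik2 (GluK2, chromosome 10, 49094833 to 49788766) pointed the other way, at 70.5, 95.3, 94.4 and 85.1 CPM in control mice and 101, 84.7, 118 and 98.5 CPM in depleted mice. Depleted mouse 3 was highest and control mouse 1 lowest, and the log2 fold change was 0.22 (adjusted p = 0.543, SE 0.12). Grik3 stood at 0.19 and Grik1 at -0.20, at adjusted p of 0.654 and 0.616.

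Metabotropic glutamate receptors fall into group I, which raises intracellular calcium, and groups II and III, which lower cAMP and often sit on axon terminals. Grm5, the group I gene of the list (chromosome 7, 87584168 to 88134907), was the most abundant per kb of exon, at 19.2 ± 3.08 in control and 22.2 ± 2.47 in depleted mice. It stood at 155, 208, 194 and 229.8 CPM in control mice and 250.3, 216, 245 and 197 CPM in depleted mice, with control mouse 1 lowest and overlapping groups. The log2 fold change of Grm5 was 0.21 (adjusted p = 0.592, SE 0.12).

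In group II, the pair of genes had fold changes of opposite sign. Grm3 (mGlu3, also expressed by astrocytes, chromosome 5, 9485541 to 9725170) had the smallest p of all 35 genes. It stood at 24.9, 29.1, 28.1 and 31.5 CPM in control mice and 43.4, 29.1, 42.0 and 37.2 CPM in depleted mice. Depleted mice 1, 3 and 4 were above every control mouse, whereas depleted mouse 2 lay at the control level. The log2 fold change was 0.42 (adjusted p = 0.257, SE 0.12), with a 95% interval of the fold from 1.10 to 1.62. Myelin markers, with a mean log2 CPM of 7.92 ± 0.34 in control and 8.42 ± 0.24 in depleted mice, also stood higher in depleted mice. Their part in the result was not tested. Grm2 (mGlu2, chromosome 9, 106643095 to 106656082) was 57.0, 30.2, 37.7 and 54.5 CPM in control mice and 33.3, 43.3, 22.1 and 36.8 CPM in depleted mice. Its spread was wide in both groups, and the log2 fold change was -0.41 (adjusted p = 0.575, SE 0.24). The gene Grm2 shares 9.60% of its exon bases with a gene on the opposite strand.

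Group III receptors reduce transmitter release. Grm4 (mGlu4, chromosome 17, 27422387 to 27521403) was 25.4, 32.2, 34.1 and 24.1 CPM in control mice and 43.7, 25.8, 45.3 and 36.4 CPM in depleted mice. Again depleted mice 1, 3 and 4 exceeded every control mouse and depleted mouse 2 did not. The log2 fold change was 0.39 (adjusted p = 0.470, SE 0.18), and -0.034 with the striatum score as a covariate. Grm8 (mGlu8, chromosome 6, 27275119 to 28135178), the least abundant of all 35 genes per kb of exon, was 11.9, 11.6, 12.1 and 14.3 CPM in control mice and 16.6, 15.7, 12.7 and 12.7 CPM in depleted mice. Here depleted mice 1 and 2 were the highest, and the log2 fold change was 0.21 (adjusted p = 0.562, SE 0.12). Grm7 stood at 0.064, with 50.7 ± 6.08 CPM in control mice and 53.0 ± 5.22 CPM in depleted mice.

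**Figure D2:**
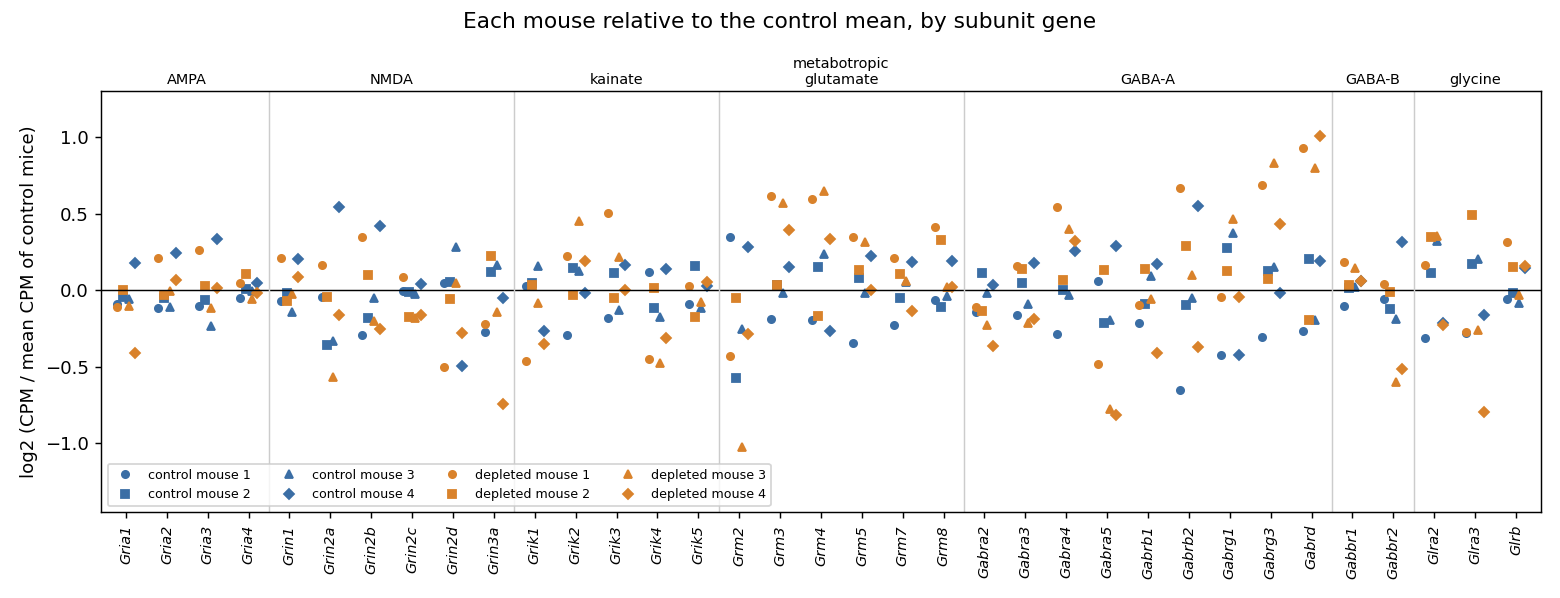
Log2 CPM of each mouse relative to the mean CPM of the 4 control mice for each receptor subunit gene (blue, control; orange, depleted; symbol, mouse number). For Gabrd, Gabrg3, Grm3 and Grm4 depleted mice 1, 3 and 4 lie above all control mice and depleted mouse 2 (square) lies among them; for Gabra5 and Grik4 the arrangement is mirrored.

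GABA-A receptor genes had the widest range of fold changes, from -0.43 to 0.71. None of the 9 passed over all genes, 4 had an unadjusted p under 0.05 (Gabrd, Gabrg3, Gabra4 and Gabra2), against 11.0% of all genes, and 3 of 9 intervals lay within 1.5-fold, against 61.7% of all genes. Of the alpha genes, Gabra3 (33.7 ± 3.54 per kb of exon in control mice) and Gabra5 (28.4 ± 4.84) led, ahead of Gabra4 (15.6 ± 2.39) and Gabra2 (14.1 ± 1.02), with Gabrd at 16.0 ± 2.72, Gabrb1 at 11.3 ± 1.36, Gabrb2 at 7.25 ± 2.49, Gabrg1 at 4.20 ± 1.25 and Gabrg3 at 2.19 ± 0.302. Gabra4, Gabrd and Gabra2 did not differ beyond their SDs in control mice. This order too rests on annotated exon length. In counts Gabra5 (84.5 ± 14.4 CPM) stood below Gabra2 (108 ± 7.76 CPM), and Gabrb1 (157 ± 18.8 CPM) above Gabra3 (132 ± 13.9 CPM), in control mice. Gabra3 (chromosome X, 72432681 to 72656848) was 119, 137, 124 and 149.6 CPM in control mice and 147, 146, 114 and 116 CPM in depleted mice, with fully overlapping groups and a log2 fold change of -0.016 (adjusted p = 0.974, SE 0.11).

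Gabrd (delta, chromosome 4, 155384980 to 155398112) encodes a subunit of receptors outside the synapse that carry tonic inhibition, often together with alpha4. It stood at 38.2, 52.7, 40.1 and 52.5 CPM in control mice and at 87.2, 40.1, 79.9 and 92.2 CPM in depleted mice. Depleted mice 1, 3 and 4 had at least 79.9 CPM, above the highest control value of 52.7, while depleted mouse 2 was near the lowest control mouse. The log2 fold change of 0.71 (adjusted p = 0.314, SE 0.23) was the largest of the 35, with a 95% interval of the fold from 1.14 to 2.34. Without depleted mouse 2 it was 0.92 and passed (adjusted p = 0.00486). Leaving out that mouse by itself sets the groups apart, and that fit called 3.31% of all genes. With any other single mouse left out Gabrd did not pass. In the 4 mice without Hcrt counts, which also leave out depleted mouse 2, the log2 fold change of Gabrd was 0.99 (adjusted p = 0.0446). The fit of those mice rested on 2 mice a group. It called 312 of all genes (128 higher, 184 lower), against 234 (11 higher, 223 lower) with all mice. In the 4 mice with Hcrt counts, also 2 a group, the log2 fold change of Gabrd was 0.38 (adjusted p = 0.991). The difference between these sets was not tested.

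Gabra4 (alpha4, chromosome 5, 71569749 to 71658308), the usual partner of delta in the forebrain, was 77.8, 94.8, 92.8 and 113 CPM in control mice and 138, 99.1, 125 and 118 CPM in depleted mice. Every depleted mouse except mouse 2 was above all control mice. Its log2 fold change was 0.34 (adjusted p = 0.362, SE 0.13). Gabrg3 (gamma3, chromosome 7, 56716465 to 57387188), a weakly expressed gamma subunit, was 21.2, 28.5, 29.1 and 25.9 CPM in control mice and 42.1, 27.5, 46.5 and 35.4 CPM in depleted mice. Only depleted mouse 2 overlapped the control mice, and the log2 fold change was 0.53 (adjusted p = 0.258, SE 0.16). Gabra5 (alpha5, abundant in hippocampal pyramidal neurons, chromosome 7, 57407672 to 57510059) was 88.2, 72.7, 73.8 and 103 CPM in control mice and 60.6, 92.8, 49.4 and 48.1 CPM in depleted mice. Again only depleted mouse 2 was not below every control mouse, and it had the second highest value of all 8. The log2 fold change was -0.43 (adjusted p = 0.486, SE 0.21), and 0.014 with the hippocampus score as a covariate. Gabra2 (alpha2, chromosome 5, 70957597 to 71095849) was 97.8, 116, 106 and 110.3 CPM in control mice and 99.7, 98.0, 92.1 and 83.7 CPM in depleted mice, and here depleted mouse 2 did not stand apart from its group. Control mouse 1 overlapped depleted mice 1 and 2, and the log2 fold change was -0.21 (adjusted p = 0.362, SE 0.075). With the striatum and the hippocampus score as covariates Gabra2 stood at -0.24 and -0.21.

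The beta and remaining gamma genes were close to the control level or varied widely. Gabrb1 was 157 ± 18.8 CPM in control mice and 147 ± 22.5 CPM in depleted mice (log2 fold change -0.093), Gabrb2 was 46.1 ± 15.8 CPM in control mice and 53.6 ± 15.6 CPM in depleted mice (0.22), and Gabrg1, which astrocytes also express, was 33.1 ± 9.80 CPM in control mice and 36.5 ± 6.44 CPM in depleted mice (0.14). Gabrg1 was lowest in control mice 1 and 4, at 24.6 and 24.7 CPM, and highest in depleted mouse 3, at 45.7 CPM.

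Several GABA-A genes lie side by side, and neighbours had fold changes of opposite sign, none of them past the threshold. Gabrg1, Gabra2, Gabra4 and Gabrb1 lie on chromosome 5 within 1397991 bases (mm10), and Gabra5 and Gabrg3 lie on chromosome 7 with 20483 bases between them. Gabra4 and Gabrb1 are transcribed away from each other, and their annotated 5′ ends lie 195 bases apart, so that the genes overlap there. The log2 ratio of Gabra2 to Gabra4 counts was 0.33, 0.30, 0.20 and -0.038 in control mice 1 to 4 and -0.47, -0.016, -0.44 and -0.50 in depleted mice 1 to 4. Depleted mice 1, 3 and 4 lay below every control mouse, and depleted mouse 2 lay near control mouse 4. The ratio of Gabrb1 to Gabra4 was 0.80, 0.64, 0.85 and 0.64 in control mice and 0.087, 0.80, 0.27 and -0.0058 in depleted mice. That of Gabra5 to Gabrg3 was 2.06, 1.35, 1.34 and 2.00 in control mice and 0.52, 1.75, 0.087 and 0.44 in depleted mice. These last 2 ratios were chosen after their values were seen. In both, depleted mice 1, 3 and 4 were below every control mouse and depleted mouse 2 was among them.

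The sequences upstream of the start of 4 of these genes are shown. They are neighbours in a cluster whose fold changes had opposite signs, though none of these fold changes passed the threshold. The sequences come from RefSeq (GRCm38.p6), which held windows for 26 of the 35 genes. They are written 5′ to 3′ on the minus strand, on which all 4 genes lie, and lie just upstream of the RefSeq start of each gene. For Gabra4 the last bases, part of an exon of Gabrb1, are left off. The RefSeq start of Gabrg3 lies upstream of the GENCODE start given above, and its window holds part of an exon of Gm9962, a noncoding antisense gene. Capitals mark GC boxes (GGGCGG on either strand).
Gabra2, chr5:71095850-71096099: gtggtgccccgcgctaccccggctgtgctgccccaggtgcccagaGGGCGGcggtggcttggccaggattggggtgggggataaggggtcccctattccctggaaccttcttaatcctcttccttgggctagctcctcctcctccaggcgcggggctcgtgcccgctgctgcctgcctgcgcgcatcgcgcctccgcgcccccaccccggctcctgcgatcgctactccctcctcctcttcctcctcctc
Gabra4, chr5:71658364-71658558: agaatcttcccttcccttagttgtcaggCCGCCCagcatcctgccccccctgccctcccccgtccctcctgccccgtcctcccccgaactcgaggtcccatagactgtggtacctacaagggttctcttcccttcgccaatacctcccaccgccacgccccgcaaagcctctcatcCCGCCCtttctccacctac
Gabra5, chr7:57510060-57510309: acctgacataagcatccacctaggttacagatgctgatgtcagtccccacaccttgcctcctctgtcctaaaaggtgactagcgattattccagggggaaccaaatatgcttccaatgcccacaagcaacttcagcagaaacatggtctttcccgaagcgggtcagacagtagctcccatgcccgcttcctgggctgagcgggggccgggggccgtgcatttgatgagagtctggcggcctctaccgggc
Gabrg3, chr7:57387216-57387465: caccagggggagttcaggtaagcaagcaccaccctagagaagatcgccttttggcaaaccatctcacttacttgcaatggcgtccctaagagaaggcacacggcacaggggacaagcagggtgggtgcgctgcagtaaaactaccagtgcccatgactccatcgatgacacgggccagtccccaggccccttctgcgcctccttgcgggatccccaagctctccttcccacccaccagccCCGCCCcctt
In the 250 bases upstream, Gabra2 held 1 GC box, Gabra4 held 2, Gabrg3 held 1 and Gabra5 held 0, where 32.7% of 32817 windows of all genes held at least 1. A TATA box (TATAAA, 12.4% of all windows) and a cAMP response element (TGACGTCA, 1.55%), searched on both strands, matched in 0 of the 4. The E-box (CANNTG, 66.2% of all windows) matched at 1 place upstream of Gabra2, apart from its GC box, and at 2 places upstream of Gabra5. GC content was 70.0% for Gabra2, 61.2% for Gabra4, 60.4% for Gabrg3 and 56.4% for Gabra5. Such matches describe letters in a window and not a site in use.

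GABA-B receptors are obligate pairs of GABBR1, which binds GABA, and GABBR2, which couples to the G protein. Gabbr1 (chromosome 17, 37045966 to 37075067), the most abundant of all 35 genes per kb of exon, was 702, 759, 764 and 787 CPM in control mice and 854, 771, 831 and 785 CPM in depleted mice. Its interval was narrow, from 0.964 to 1.20 as a fold, with a log2 fold change of 0.11 (adjusted p = 0.640, SE 0.071). Gabbr2 (chromosome 4, 46662305 to 46991873) was 257, 247, 236 and 333 CPM in control mice and 276, 266, 177 and 188 CPM in depleted mice. Depleted mice 3 and 4 were below every control mouse and control mouse 4 was the highest, and the log2 fold change was -0.24 (adjusted p = 0.646, SE 0.17). Within each mouse the log2 ratio of Gabbr1 to Gabbr2 was 1.45, 1.62, 1.70 and 1.24 in control and 1.63, 1.54, 2.23 and 2.06 in depleted mice. Only depleted mice 3 and 4 were above the control range.

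Glycine receptors combine alpha subunits with the beta subunit, which ties them to the scaffold protein gephyrin. Glrb (beta, chromosome 3, 80843599 to 80913660) made up 82.1% ± 3.47 in control and 82.6% ± 3.64 in depleted mice of the 3 genes per kb of exon. It stood at 184, 188, 179.7 and 211 CPM in control mice and 237, 211, 187 and 213 CPM in depleted mice, with a log2 fold change of 0.15 (adjusted p = 0.555, SE 0.084). Depleted mouse 1 was highest, and the groups overlapped. Glra2 was 20.9 ± 4.28 CPM in control mice and 23.6 ± 4.13 CPM in depleted mice (0.18), and Glra3 was 20.9 ± 3.42 CPM in control mice and 19.1 ± 7.35 CPM in depleted mice (-0.13), at adjusted p of 0.757 and 0.888. Glra3 was highest in depleted mouse 2, at 29.4 CPM, and lowest in depleted mouse 4, at 12.1 CPM, so that its extremes lay within 1 group.

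**Figure D3:**
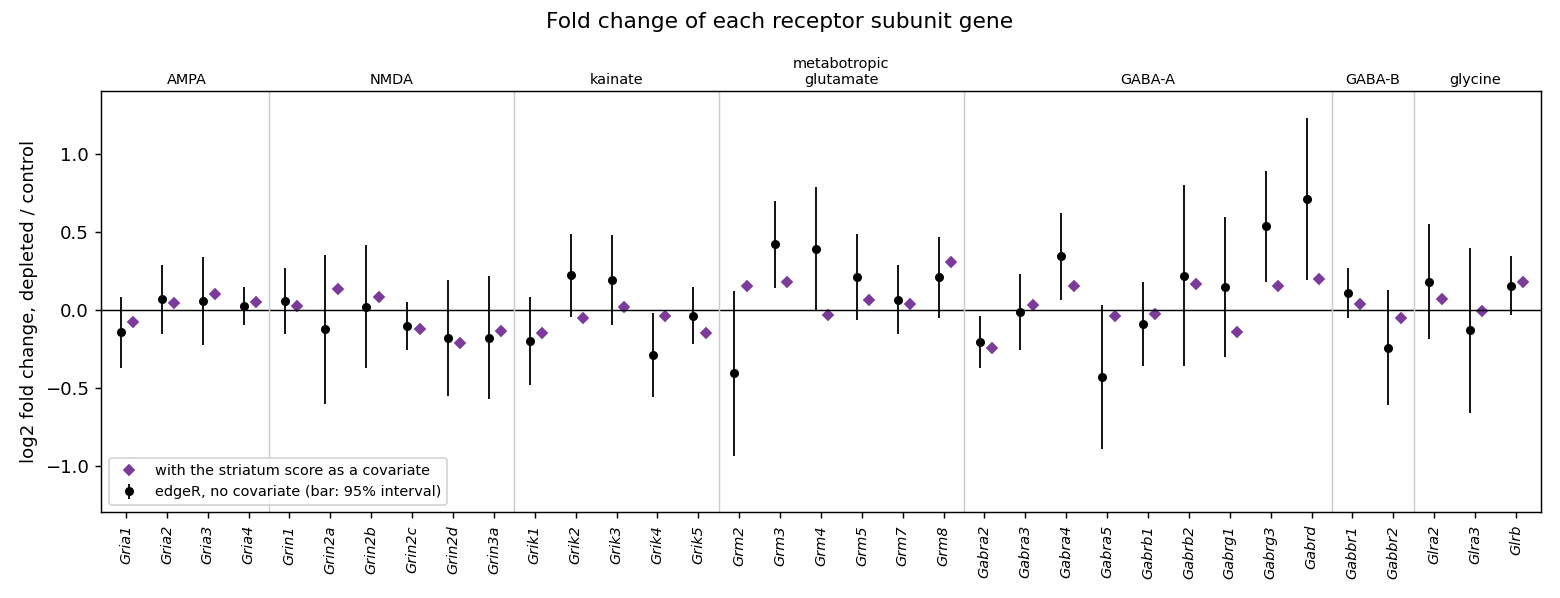
Log2 fold change, depleted over control, of each receptor subunit gene in edgeR (black, bar: 95% interval) and with the striatum score of each mouse as a covariate (purple diamonds, no interval drawn). Without the covariate Gabrd is the farthest from 0 at 0.71; with it, Gabrd stands at 0.19 and the median distance from 0 of the 35 genes is 0.0810, beside 0.180 without it.

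Regional marker scores moved with several of these genes. All 12 striatum markers had positive fold changes, with a median of 1.41, and 11 of them had an unadjusted p under 0.05, but 0 passed over all genes. Their summed level was 417 to 1972 CPM in control mice and 976 to 3836 CPM in depleted mice. Of 10 hippocampus markers, 8 had negative fold changes (median -0.63) and 0 passed. Summed, they stood at 583 CPM in control mice (524 to 664) and 543 CPM in depleted mice (495 to 569), with overlapping ranges. The hippocampus score averages log2 CPM, so weakly expressed markers count in it as much as abundant ones. Of the cerebellum and hindbrain markers, 9 of 12 were tested, 7 had negative fold changes (median -0.97) and 1 passed, at a low summed level of 50.8 to 76.1 CPM in control mice and 36.4 to 65.9 CPM in depleted mice. The 10 cortical excitatory neuron markers had a median of 0.050. Over the 8 mice the striatum and hippocampus scores ran opposite to each other (Pearson r = -0.96, Spearman rho = -0.90, exact two-sided permutation p = 3.72e-04 and 0.00456), so these regions cannot be told apart in these libraries.

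The level of each receptor gene was therefore set against both scores over the 8 mice, 70 relations chosen after values were seen, with exact two-sided permutation tests and Benjamini-Hochberg adjustment over all of them. At an adjusted p under 0.05 for Pearson's r, 8 of 35 genes followed the striatum score, 5 positively and 3 negatively, and 5 did so by Spearman's rho. At an unadjusted permutation p under 0.05 there were 10 of 35 (28.6%), against 14.3% of all genes other than the markers. Relations at least as strong as the weakest of these 8 were present in 4.55% of all genes. Grik2 had r = 0.94 and rho = 0.98 (exact permutation p = 7.44e-05 and 3.97e-04, adjusted 0.00521 and 0.0139). Gabrg3 had r = 0.94 and rho = 0.98 (exact permutation p = 2.23e-04 and 3.97e-04, adjusted 0.00781 and 0.0139). Grik4 ran the other way, with r = -0.93 and rho = -0.95 (exact permutation p = 0.00124 and 0.00114, adjusted 0.0239 and 0.0200).

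Grm4 (r = 0.90, rho = 0.95) and Grm2 (r = -0.88, rho = -0.93) passed by both measures as well, at adjusted exact permutation p of 0.0330 or less. Gabra5 (r = -0.87, rho = -0.86), Grm3 (r = 0.86, rho = 0.76) and Gabrd (r = 0.85, rho = 0.81) passed by r but not by rho, at adjusted exact permutation p of 0.0625, 0.161 and 0.117 for rho. Without control mouse 1 and depleted mouse 3, the mice farthest from the median striatum score, r was 0.94 for Grik2, 0.88 for Gabrg3, -0.93 for Grik4, 0.91 for Grm4, -0.79 for Grm2, -0.94 for Gabra5, 0.72 for Grm3 and 0.82 for Gabrd. The hippocampus score gave 6 relations past the threshold by r, those of Gabra5 (0.94), Grik4 (0.93), Gabrg3 (-0.88), Grik2 (-0.82), Grm4 (-0.90) and Gabrd (-0.90), and 2 by rho, those of Gabra5 and Gabrd. At an unadjusted permutation p under 0.05 there were 10 of 35, against 13.5% of all genes, and 5.79% of all genes had a relation at least as strong as the weakest of the 6. The scores differed between the groups, and each group and each set with or without Hcrt counts held 4 mice, too few for a relation of its own.

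**Figure D4:**
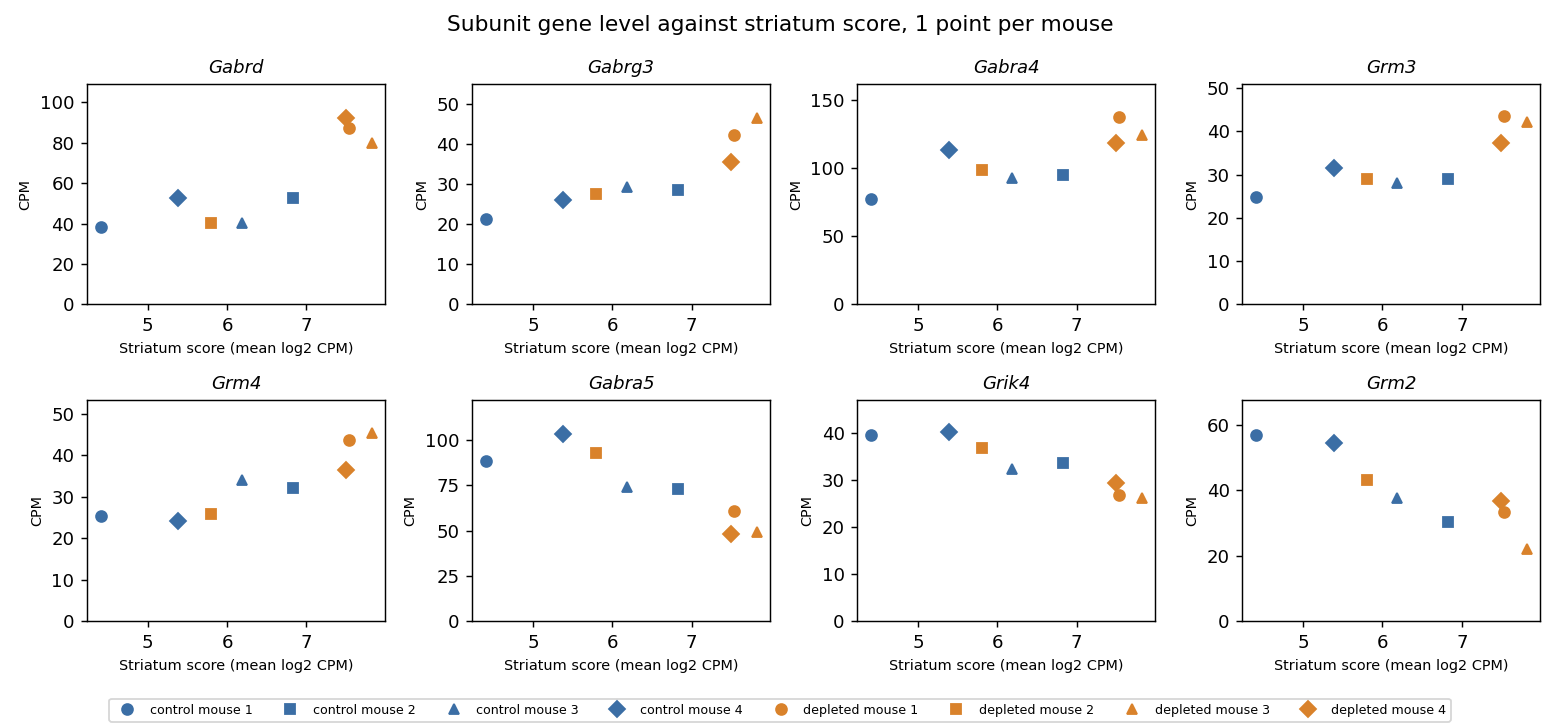
CPM of 8 receptor subunit genes (vertical axes, from 0) against the striatum score, the mean log2 CPM of 12 striatal marker genes (horizontal axes), with 1 point per mouse (blue, control; orange, depleted; symbol, mouse number). Gabrd, Gabrg3, Gabra4, Grm3 and Grm4 are higher and Gabra5, Grik4 and Grm2 lower in mice with a high score. The relation of Gabra4 did not pass (r = 0.78, adjusted exact permutation p = 0.0823), and Grik2 (r = 0.94) is not shown. Depleted mouse 2 (orange square, score 5.80) lies among the control mice in most panels.

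With the striatum score as a covariate 0 of 35 genes passed, and 29 kept their sign. Gabrd stood at 0.19, Gabrg3 at 0.15, Grm3 at 0.18, Gabra4 at 0.15, Grik4 at -0.042 and Gabra5 at -0.041, each closer to 0 than without it, whereas Grm2 changed sign, to 0.15. Since the score was higher in depleted mice, such a fit can take group differences into the covariate. Without depleted mouse 2, the fit called 4 of 35 genes: Gabrd, Grm3 (0.54, adjusted p = 0.0158) and Gabrg3 (0.67, adjusted p = 0.0259) as higher and Gabra5 (-0.67, adjusted p = 0.0343) as lower. That fit called 3.31% of all genes, and the 3 depleted mice left were those with the highest striatum scores. The part of regional content in these differences was not tested.

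Genes that work beside the receptors gave no calls either. Of 69 tested genes for auxiliary subunits, scaffolds, receptor partners and transmitter handling, 0 were lower and 0 higher over all genes in edgeR, 13 had an unadjusted p under 0.05 (where 11.0% of all genes did), DESeq2 called 0 and limma-voom 0, and the median log2 fold change was 0.017. Among 16 auxiliary subunits of glutamate receptors, Cnih2, a cornichon that escorts AMPA receptors, was 188 ± 8.25 CPM in control mice and 165 ± 7.69 CPM in depleted mice. It was the only one of the 69 whose groups did not overlap (against 5.77% of all genes), with depleted mice lower, and its log2 fold change was -0.18 (adjusted p = 0.317, SE 0.060). Neto2, an auxiliary subunit of kainate receptors, was 61.9 ± 12.6 CPM in control mice and 84.8 ± 14.4 CPM in depleted mice, at 0.46 (adjusted p = 0.341, SE 0.16). Of 18 scaffold genes of the glutamate synapse Shank1 stood at -0.31 (adjusted p = 0.425, SE 0.13) and Shank2 at -0.25 (adjusted p = 0.495, SE 0.12). For 16 partners of GABA and glycine receptors, the GABA-B auxiliary subunit gene Kctd12 stood at -0.32 (adjusted p = 0.199, SE 0.085), with 64.2% of its exon bases shared with Mir5130 and Gm26778, whose reads its counts may include, and Kctd8 at 0.35 (adjusted p = 0.430, SE 0.15). In the list of 19 genes for transmitter synthesis and transport, the chloride importer gene Slc12a2 stood at 0.23 (adjusted p = 0.297, SE 0.072) and Gad1, which encodes an enzyme of GABA synthesis, at 0.38 (adjusted p = 0.309, SE 0.12). Without depleted mouse 2, 3 of the companion genes passed, 1 higher and 2 lower, in a fit that called 3.31% of all genes.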

How the data were processed

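The authors deposited 1 table of raw counts per gene symbol, 1 column per mouse, with no normalization. The submitters' processing notes list mm10 as the build and STAR, DESeq, DESeq2, MultiQC and FastQC as tools. Not given in the sources used here are versions, the way reads were counted, the annotation, the strand setting and the kit. Columns were matched to mice by the group and number in their names. Genes were filtered with filterByExpr (20140 kept), scaled by TMM factors, and then fitted in edgeR 4.0.16 (glmQLFit, glmQLFTest; R version 4.3.3). The 2 groups were compared without covariates, and p-values were adjusted by Benjamini-Hochberg over all genes (threshold 0.05). A standard error is the absolute log2 fold change divided by the square root of F, and 95% intervals use it with the degrees of freedom of the fit. Scores are mean log2 CPM with a prior count of 2. Exon lengths, positions and overlaps are from GENCODE M21 (mm10), which matched all 35 members; 14 share some exon bases with another gene, 3 of them over 5%. Per-length values use the union of all annotated exons, so genes with long annotated exons may read low.

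Members, lists and tests were chosen with earlier results of these data known. All 35 members are named; those with the 12 smallest p or the highest level of their class per length are given per mouse. Per companion list the 2 genes with the smallest p are named. Depth of 48455538 to 68406688 counts makes 1 CPM 48.5 to 68.4 counts, so for most members spread between mice exceeds counting error. No 2 libraries of a group agreed within sampling noise. Alternatives used DESeq2 1.42.0 or its size factors, library size, limma-voom (3.58.1), 2 other filters, the replicate number as a block, regional scores, Hcrt counts (at least 100) as a block or split, and leaving out each mouse. The fit was tested on simulated data.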

Additional observations from a re-analysis of the deposited data

Results flagged for a closer look

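Of the 70 sets of 4 mice (35 genes in each group), 3 held 1 mouse far from the others by Dixon's ratio, where chance flags about 1 in 20. For Gria1, control mouse 4 stood at 592 CPM, with the other control mice between 491 and 506 CPM. Gria2 was high in the same mouse, at 912 CPM, with the rest of its group at 713 to 746 CPM. Grin2c was high in depleted mouse 1, at 65.1 CPM while depleted mice 2, 3 and 4 stood between 54.1 and 54.8 CPM. Without control mouse 4 the log2 fold changes of Gria1 and Gria2 were -0.081 and 0.16, and without depleted mouse 1 that of Grin2c was -0.18; none of these passed.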

How the results depend on the processing

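Over 24 alternatives, receptor genes passed in 2. Leaving out each mouse in turn gave 0 to 4 calls among the 35 (0 to 3 higher, 0 to 1 lower) and 0 to 3 among companion genes (0 to 1 higher, 0 to 2 lower), all without depleted mouse 2, and 185 to 684 among all genes (2 to 243 higher, 178 to 441 lower), against 234 (11 higher, 223 lower) with all mice. In the 4 mice without Hcrt counts 1 receptor gene (Gabrd, 1 higher) and 3 companion genes passed (2 higher, 1 lower), beside 312 of all genes (128 higher, 184 lower). Counts over all genes were 464 with DESeq2 (118 higher, 346 lower), 148 with the cerebellum and hindbrain score (140 lower) and 66 in the 4 mice with Hcrt counts (0 higher, 66 lower). Higher calls were 25 with no filter, 6 at a minimum of 1 CPM, 2 with the striatum score, 18 with the hypothalamus score, 23 with the cortex score and 3 with the hippocampus score. Mice share only a replicate number: same-numbered mice deviated together with correlations of -0.22, -0.17, 0.37 and -0.011. With the replicate block 0 receptor genes, 0 companion genes and 165 of all genes passed (4 higher, 161 lower). Log2 fold changes of receptor genes changed sign as follows, and none of these passed. With the striatum score they were 0.13 for Grin2a, -0.054 for Grik2, 0.15 for Grm2, -0.034 for Grm4, 0.027 for Gabra3 and -0.14 for Gabrg1. With the hippocampus score they were 0.14 for Grin2a, -0.0050 for Grik2, 0.085 for Grm2, -0.047 for Grm4, 0.064 for Gabra3, 0.014 for Gabra5, 0.068 for Gabrb1, -0.047 for Gabrg1 and 0.10 for Glra3. With the cerebellum and hindbrain score they were -0.12 for Gria2, -0.16 for Gria3, -0.14 for Grin1, -0.18 for Grin2b, 0.19 for Grin2d, 0.056 for Grin3a, 0.10 for Grik1, -0.051 for Grik3, -0.012 for Grm7, -0.055 for Gabrb2 and 0.24 for Glra3. With the thalamus score it was 0.026 for Gabra3. In the mice with Hcrt counts they were 0.0060 for Gria1, 0.067 for Grin2a, 0.042 for Gabrb1 and -0.015 for Gabrg1. In the mice without Hcrt counts they were -0.019 for Grin2b and 0.075 for Grik5. With each mouse left out in turn the ranges that cross 0 were -0.026 to 0.19 for Gria3, -0.0072 to 0.13 for Grin1, -0.24 to 0.11 for Grin2a, -0.11 to 0.19 for Grin2b, -0.074 to 0.016 for Grik5, -0.0043 to 0.13 for Grm7, -0.083 to 0.048 for Gabra3 and -0.41 to 0.028 for Glra3. The cause of these changes was not tested. Alternatives that add a regional score rest on 8 mice whose scores differ between the groups, and splits by Hcrt on 2 mice a group. The median log2 fold change of all genes moved by at most 0.01 between scalings. Labels give separate mice, but no batch, cage or extraction date, so p-values cover the spread between these mice alone.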

Other observations

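Summed over the members of a class, levels of the AMPA, NMDA, kainate, GABA-A and GABA-B receptor genes differed between the groups by less than the SD of either group. The NMDA class stood at 1114 ± 176 CPM in control mice and 1105 ± 136 CPM in depleted mice, the kainate class at 512 ± 38.4 CPM in control mice and 520.3 ± 32.1 CPM in depleted mice, the GABA-A class at 727 ± 78.8 CPM in control mice and 757 ± 60.6 CPM in depleted mice and the GABA-B class at 1021 ± 69.2 CPM in control mice and 1037 ± 67.2 CPM in depleted mice. The metabotropic glutamate class stood at 362 ± 38.7 CPM in control mice and 404 ± 35.9 CPM in depleted mice, and the glycine class at 232 ± 12.4 CPM in control mice and 255 ± 21.7 CPM in depleted mice, differences larger than either SD that were not tested. Differences in single genes of opposite sign, as for Gabrd and Gabra5, are not visible in these sums.

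The receptor genes differed in how far they varied among control mice. The coefficient of variation was lowest for Grin2c (2.07%), Gria4 (2.77%) and Gabbr1 (4.80%), and highest for Gabrb2 (34.3%), Grin2a (31.7%) and Gabrg1 (29.6%). Grin2a and Gabrb2 were highest in control mouse 4, at 265 and 67.5 CPM, and Gabrg1 in control mouse 3, at 42.9 CPM.

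Markers of oligodendrocyte precursors, cells that receive glutamate and GABA synapses, had a mean log2 CPM of 4.89 ± 0.19 in control and 4.62 ± 0.13 in depleted mice. Of 10, 3 fell (against 1.11% of all genes called lower): Pdgfra (log2 fold change -0.981, edgeR adjusted p = 0.00304), Cspg4 (log2 fold change -0.859, edgeR adjusted p = 3.14e-04) and Matn4 (log2 fold change -1.005, edgeR adjusted p = 0.00141). The rest of the list was split: 4 of 10 fold changes were positive, and the median was -0.019. Gpr17, at 0.60 (edgeR adjusted p = 0.177), had every depleted mouse above every control mouse, as did 2.28% of all genes. The part of these precursor cells in the levels of the receptor genes was not tested.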
